A study of Mus musculus with 6 samples.

Results

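Oxidative phosphorylation is carried out by 5 protein complexes of the inner mitochondrial membrane, and the nuclear genes for their subunits are described here in the arcuate hypothalamus of mice that lack Dicer in Pomc-expressing cells. The genes were taken by symbol from the array annotation: every probe set with exactly 1 symbol that begins with Nduf, Uqcr, Atp5 or Cox4 to Cox8, or that is Sdhb, Sdhc, Sdhd or Cyc1. Sdha was left out by that rule, and 10 probe sets that carry several symbols were not used. The rule gave 176 of 45037 probe sets and 90 of 18193 genes: 34 genes of complex I, 3 of complex II, 9 of complex III, 11 of complex IV, 17 of complex V, 8 assembly factors and 8 tissue forms or paralogues. Ndufa4, long counted with complex I, was placed in complex IV, where its protein is found.

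RNA of 6 hypothalamic microdissections was measured on Affymetrix Mouse Genome 430 2.0 arrays. The labels describe arcuate tissue from mice 2 weeks old whose strain is given as C57Bl/6J, FVB/N and 129, mixed. In the 3 POMCDicerKO samples Dicer, the enzyme that cuts microRNA precursors to their mature form, was deleted in cells that express Pomc, and the 3 control samples are given no alleles beyond the genotype "Ctrl". The deletion is made in the Pomc-expressing cells, while every cell type of the dissected tissue contributes transcripts of the respiratory chain. In such bulk RNA, fewer cells of a type and less RNA per cell cannot be told apart. The sources used here do not give the Cre line, nor whether a sample was 1 animal or a pool. The p-values therefore measure the spread between these samples only.

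Complexes I and II pass electrons from NADH and succinate to ubiquinone, complex III passes them on to cytochrome c, and complex IV reduces oxygen. Complexes I, III and IV pump protons, and complex V, the ATP synthase, uses the proton gradient to make ATP. In neurons this pathway supplies most of the ATP that restores ion gradients after firing. The subunits encoded in mitochondrial DNA are outside the rule. Values are deposited log2 expression values made with RMA, on which a difference of 1 is a doubling, and a gene with several probe sets is read from the brightest, by its mean over the 6 arrays. Levels of different probe sets cannot be set against each other.

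Dicer1 itself was 9.22, 9.18 and 9.24 in controls 1 to 3 and 9.18, 9.19 and 9.33 in POMCDicerKO 1 to 3 by its brighter probe set. The groups overlapped (log2 fold change 0.018 ± 0.068, limma standard error). The sources used here do not say whether that probe set lies in the deleted part, so it does not check the labels. Pomc was 9.94, 10.87 and 9.76 against 9.35, 9.71 and 9.43, lower in every POMCDicerKO sample, with a log2 fold change of -0.69 ± 0.27 that did not pass adjustment (limma adjusted p = 0.9999). No probe set on the array passed an adjusted p of 0.05 (0 of 45037, or 0%, smallest limma adjusted p = 0.417), and 1098 (2.44%) had an unadjusted p under 0.05. All 10 measured arcuate neuron markers, Pomc among them, were lower on average in POMCDicerKO (median log2 fold change -0.21). Their per-array medians, as deviations from the control mean, were -0.23, 0.23 and -0.014 in controls and -0.43, 0.014 and -0.17 in POMCDicerKO. The arrays also differed in the RNA levels of markers of other cell types. All 11 meningeal fibroblast markers were lower on average in POMCDicerKO (median log2 fold change -0.84), with per-array medians, as deviations from the control mean, of 0.32, 0.51 and -0.84 in controls and -0.41, -0.67 and -1.14 in POMCDicerKO. All 11 measured oligodendrocyte markers were higher on average (median 0.42), with per-array medians from -0.13 to 0.13 in controls and 0.81, 0.11 and 0.37 in POMCDicerKO.

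Many nuclear genes of the respiratory chain are known targets of the factors NRF1, GABPA (an ETS family factor) and YY1, so the promoters were read for the letters of their motifs. The RefSeq promoter table (assembly GRCm38.p6, 250 bases before to 50 after the listed start) held 73 of the 90 genes and not the other 17. The NRF1 letters GCGCANGCG, on either strand, stood in 18 of 73 promoters (24.66%), against 10.56% of the promoters of all array genes and 6.472% of all 27025 promoters in the table. The ETS letters CCGGAAG stood in 18 of 73 (24.66%, against 13.82% and 9.121%), and the YY1 letters AAGATGGC in 9 of 73 (12.33%, against 3.71% and 2.879%). At least 1 of these motifs was present in 38 of 73 promoters (52.05%), against 16.5% of all promoters in the table. Those include genes not on the array, and this share was not taken over array genes alone. Sp1 letters, GGGCGG, stood in 47.95% against 54.11% of array gene promoters, and CCAAT in 42.47% against 38.22%. The motifs can overlap each other. Promoters of 67 mitochondrial ribosome genes held the NRF1, ETS and YY1 letters in 22.39%, 35.82% and 17.91%. The sequences of 6 members show where these letters lie, chosen after the matches were found: 1 gene of each complex with an NRF1 or ETS match in the 100 bases before the listed start, and Cox7c, the gene with the highest fold change here, which has none in that stretch. They are given 5′ to 3′ on the gene's strand, with NRF1 and ETS matches in capitals.
Ndufs3 (chr2:90904722-90904821, minus strand): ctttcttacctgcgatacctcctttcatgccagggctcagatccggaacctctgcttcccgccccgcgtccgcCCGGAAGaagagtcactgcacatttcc
Sdhd (chr9:50603850-50603949, minus strand): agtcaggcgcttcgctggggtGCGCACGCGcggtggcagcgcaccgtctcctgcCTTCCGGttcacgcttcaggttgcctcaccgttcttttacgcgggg
Uqcr11 (chr10:80406822-80406921, minus strand): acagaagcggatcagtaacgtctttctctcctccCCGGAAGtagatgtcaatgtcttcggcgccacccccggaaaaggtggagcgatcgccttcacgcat
Cox6a1 (chr5:115348959-115349058, minus strand): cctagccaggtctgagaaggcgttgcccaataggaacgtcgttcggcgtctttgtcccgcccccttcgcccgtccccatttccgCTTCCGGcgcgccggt
Atp5k (chr5:108434400-108434499, minus strand): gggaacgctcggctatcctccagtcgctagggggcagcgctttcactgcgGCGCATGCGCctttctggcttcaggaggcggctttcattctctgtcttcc
Cox7c (chr13:86046796-86046895, minus strand): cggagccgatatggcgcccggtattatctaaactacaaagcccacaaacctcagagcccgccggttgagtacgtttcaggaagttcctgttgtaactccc
In Ndufs3 and Uqcr11 the capitals mark an ETS match on the gene's strand, and in Cox6a1 an ETS match on the opposite strand. Sdhd holds an NRF1 match followed by an ETS match on the opposite strand. In Atp5k the capitals are a pair of overlapping NRF1 matches, 1 on each strand. A match is only a run of letters and was not tested as a binding site.

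Between the groups the members differed little. No member probe set passed (0 of 176, smallest limma adjusted p = 0.9999), and 2 (1.14%) had an unadjusted p under 0.05, both higher in POMCDicerKO. Over all probe sets this share was 2.44%, of which 1.24% were higher and 1.2% lower. Of the 90 genes, 48 (53.3%) were lower and 42 higher on average, beside 55.1% lower over all genes. The median log2 fold change was -0.0084, beside -0.0099 over all genes. The fold changes ran from -0.20 (Cox6a2) to 0.24 (Cox7c), and 80 of 90 genes (88.9%) were within 0.1 of 0, beside 78.3% of all genes. The median residual SD was 0.079 over the members and 0.099 over all genes, but among genes with a mean of at least 10 it was 0.077 over the members and 0.069 over all. Among these brighter genes the shares within 0.1 of 0 were 65 of 69 members (94.2%) and 90.6% of all.

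The limma 95% interval of each fold change shows how precisely it was measured in this bulk tissue after RMA. It sets no bound on a change within the Pomc-expressing cells alone. Members moved together by array, as described below, so the intervals are not independent of each other. Leaving out POMCDicerKO 3 moved the fold change of a member by up to 0.20. For 78 of the 90 genes (86.7%) the whole interval lay within a change of 25%, taken as the same fold up or down (0.32 on the log2 scale), beside 76.2% of all genes. Among genes with a mean of at least 10 this held for 64 of 69 members (92.8%) and for 90.9% of all, so it is about as common among other bright genes. The 12 genes whose intervals reached further were Ndufa3, Ndufb4 and Ndufs3 of complex I, Uqcrq of complex III, Cox7c of complex IV, Atp5e and Atp5mpl of complex V, and the tissue forms Cox4i2, Cox6a2, Cox7a1, Cox7b2 and Cox8c. Of these, 4 had a mean under 6, close to background. The outermost bounds were -0.57, for Cox7a1, and 0.56, for Ndufs3.

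**Figure D1:**
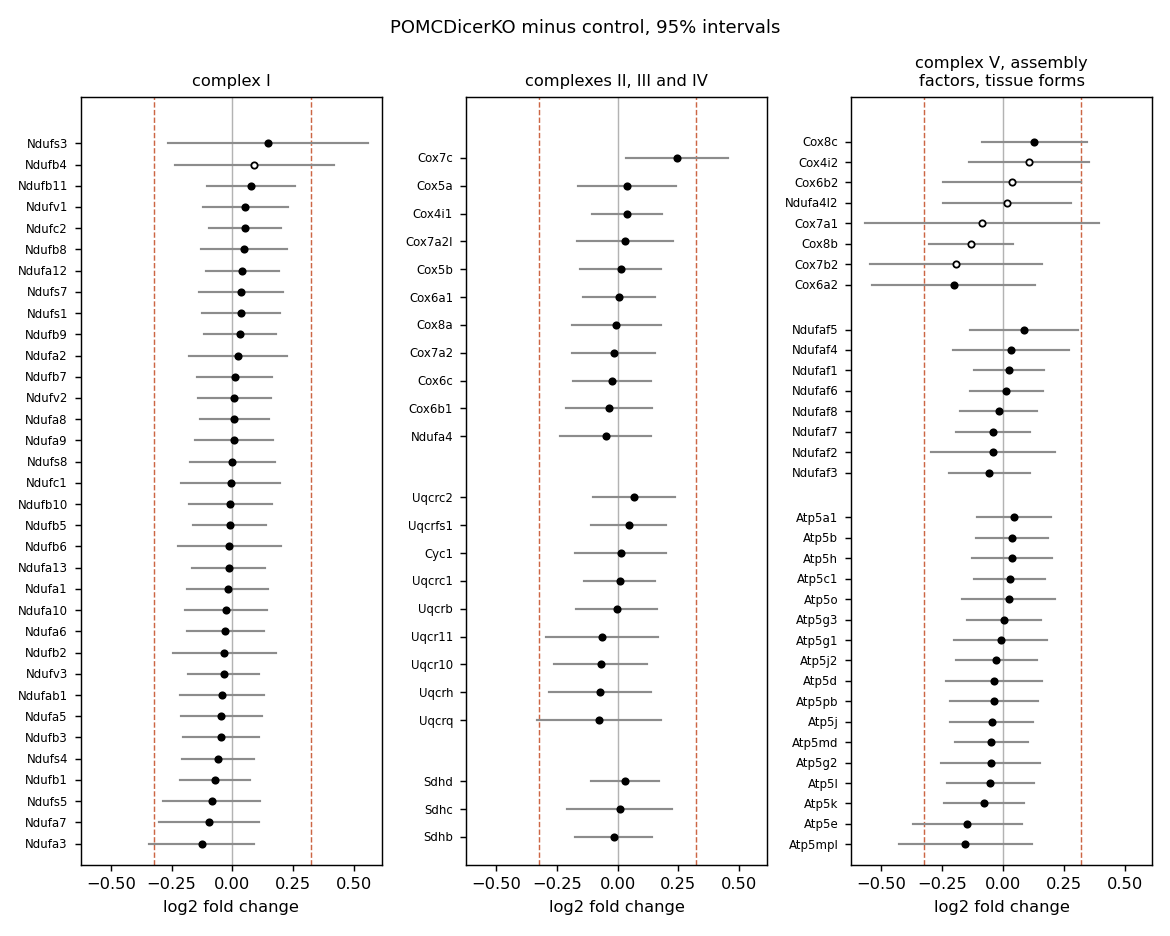
Log2 fold change of each of the 90 genes, POMCDicerKO (KO) minus control, with its limma 95% interval, grouped by complex; open circles have a mean under 6 over the 6 arrays and the dashed lines mark a change of 25%, the same fold up or down. The intervals of 78 genes stay between the dashed lines, and the fold changes run from -0.20 to 0.24.

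Cox7c encodes a small subunit of cytochrome c oxidase and had the highest fold change. Its brightest probe set ends in _s_at, a kind that may match several transcripts. It read 7.18, 7.43 and 7.38 in controls and 7.67, 7.47 and 7.58 in POMCDicerKO. Every POMCDicerKO value lay above every control value, with the nearest pair 7.43 and 7.47. The log2 fold change was 0.24 ± 0.090 (95% interval 0.034 to 0.45, limma unadjusted p = 0.0284, adjusted p = 0.9999), and the two-sided exact permutation test gave p = 0.1, the smallest that 3 against 3 samples allow. Without control 1 the fold change was 0.17. A further, dimmer Cox7c probe set read 5.42, 5.70 and 5.85 against 5.75, 5.56 and 5.84, and there the groups overlapped (0.060). With probe sets ending in _x_at or _s_at left out, that dimmer one stands for Cox7c, so the fold change of 0.24 rests on the _s_at set.

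Groups without overlap were seen for 4 of 176 member probe sets (2.27%), beside 6.36% of all probe sets (3.14% higher and 3.22% lower). Cox7c was 1 of them, and the other three are named here after their values were seen. A dim probe set of Uqcrq, a small subunit of complex III, read 5.046, 4.92 and 4.97 in controls and 5.049, 5.22 and 5.30 in POMCDicerKO. Its log2 fold change was 0.21, and the nearest pair was 5.046 and 5.049. The brightest Uqcrq probe set read 11.20, 11.24 and 11.01 against 11.22, 11.12 and 10.87 and gave -0.078. The remaining Uqcrq probe sets, also dim, gave -0.11 and -0.048. Ndufb1, an accessory subunit of complex I, was 7.79, 7.84 and 7.79 against 7.73, 7.78 and 7.69, a difference of -0.071. A dim probe set of Ndufb8, also an accessory subunit of complex I, had lower values on every POMCDicerKO array (4.46, 4.55 and 4.57 against 4.43, 4.42 and 4.25). The bright Ndufb8 probe set read 11.98, 11.75 and 11.85 against 11.96, 11.87 and 11.90, with overlapping groups and a difference of 0.049. None of these passed adjustment (limma adjusted p = 0.9999 for each).

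Complex I, the largest complex, was read through 34 genes, of which 16 were higher and 18 lower (median log2 fold change -0.0084). Its 6 core subunits under the rule, which carry the NADH site and the iron-sulfur clusters, had means above control by 0.00023 (Ndufs8) to 0.15 (Ndufs3), with a median of 0.035. For Ndufs8 this sign turned to -0.0072 when each array was centred on its median, and its 6 probe sets ran from -0.079 to 0.043. A second Ndufs7 probe set gave -0.019, against 0.036 for the brighter one. The 28 supernumerary subunits, which surround the core, had a median of -0.014, with 10 higher and 18 lower. The difference between core and supernumerary subunits was not tested. Ndufv1, which binds NADH and flavin, was 11.57, 11.41 and 11.45 in controls and 11.63, 11.48 and 11.49 in POMCDicerKO (0.053 ± 0.076). Ndufs1, the subunit with several iron-sulfur clusters, was 10.99, 10.86 and 10.87 against 11.00, 10.93 and 10.89 (0.035 ± 0.069). In both genes the highest sample of each group was number 1.

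Ndufs3, a core subunit of the arm that reaches into the matrix, had the largest fold change of complex I. It took 1 of 2 levels on every array: 11.94, 11.41 and 11.37 in controls and 11.43, 11.86 and 11.86 in POMCDicerKO. Control 1, POMCDicerKO 2 and POMCDicerKO 3 sat near the upper level and the other three arrays near the lower, so the split crossed the groups. The fold change was 0.15 ± 0.18 (limma adjusted p = 0.9999) and ranged from 0.046 to 0.33 when each array was left out. Ndufa3, a small accessory subunit, was 12.30, 12.48 and 12.17 against 12.27, 12.19 and 12.11 (-0.13 ± 0.092). Control 2 was the highest, and without it the difference was -0.046.

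**Figure D2:**
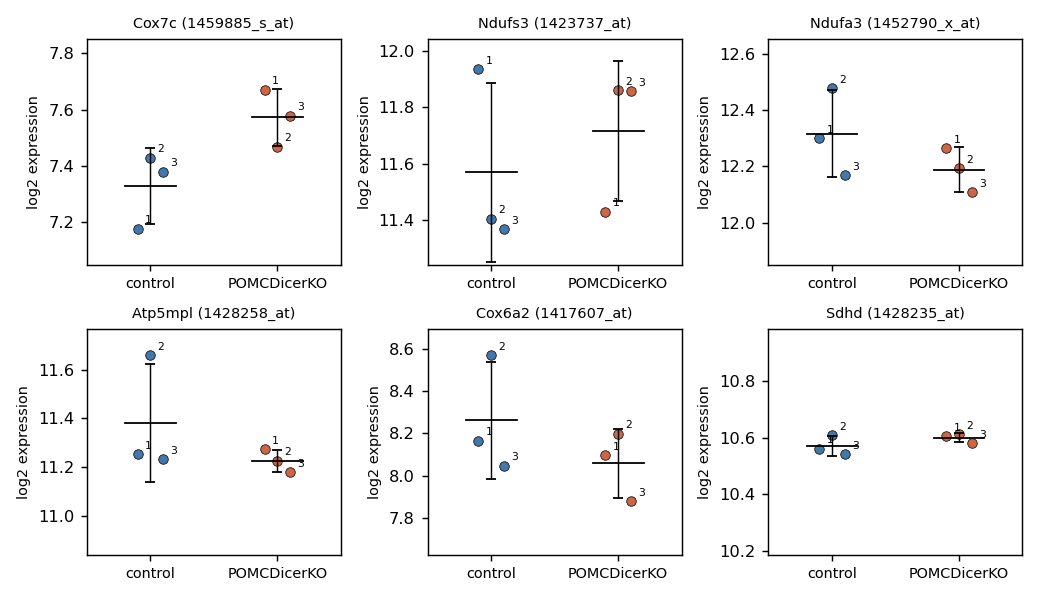
Log2 expression value of Cox7c, Ndufs3, Ndufa3, Atp5mpl, Cox6a2 and Sdhd on each array, by group (KO is POMCDicerKO), with the replicate number beside each point and the group mean ± SD (n = 3). Cox7c has groups that do not overlap, Ndufs3 splits into 2 levels across both groups, and control 2 is the highest array for Ndufa3, Atp5mpl and Cox6a2.

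Complex II, succinate dehydrogenase, is shared with the tricarboxylic acid cycle. Its iron-sulfur subunit Sdhb was 11.90, 11.88 and 11.79 in controls and 11.91, 11.82 and 11.79 in POMCDicerKO (-0.016 ± 0.068). Sdhc, a membrane anchor, was 9.54, 9.32 and 9.28 against 9.50, 9.37 and 9.29 (0.0089 ± 0.092), and Sdhd, the other anchor, 10.56, 10.61 and 10.54 against 10.61, 10.61 and 10.58 (0.030 ± 0.060). The groups overlapped in all 3 genes. The 95% interval of Sdhd ran from -0.11 to 0.17.

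In complex III, 4 of 9 genes were higher and 5 lower (median -0.0043). Cyc1, which is cytochrome c1, was 11.28, 11.18 and 11.11 in controls and 11.33, 11.17 and 11.12 in POMCDicerKO (0.013 ± 0.081). Uqcrfs1, the Rieske iron-sulfur protein, was 11.45, 11.43 and 11.35 against 11.52, 11.44 and 11.41 (0.045 ± 0.066). Both genes had their highest value in sample 1 and their lowest in sample 3 of each group. The core proteins Uqcrc1 and Uqcrc2 had fold changes of 0.0079 ± 0.063 and 0.068 ± 0.072, and Uqcr11, a small subunit, of -0.063 ± 0.099.

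In complex IV, 6 of 11 genes were higher and 5 lower (median 0.0062), and outside Cox7c the fold changes were small. Cox4i1, the common form of subunit 4, was 13.07, 13.002 and 13.01 in controls and 13.11, 13.05 and 13.04 in POMCDicerKO (0.039 ± 0.062). Cox5a was 12.73, 12.54 and 12.58 against 12.76, 12.68 and 12.53 (0.040 ± 0.087), and Cox6a1 was 13.57, 13.54 and 13.58 against 13.64, 13.54 and 13.53 (0.0062 ± 0.064). In these genes the range inside each group was larger than the difference between group means. Cox6b1, Cox7a2, Cox8a and Ndufa4 had fold changes of -0.036, -0.016, -0.0048 and -0.050. Cox7a2l, which helps join complexes III and IV in supercomplexes, had a fold change of 0.032.

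In complex V, 6 of 17 genes were higher and 11 lower (median -0.035), beside 55.1% lower over all genes. Atp5b, the catalytic beta subunit, was 12.85, 12.83 and 12.84 in controls and 12.95, 12.86 and 12.82 in POMCDicerKO (0.038 ± 0.064). The 3 genes Atp5g1, Atp5g2 and Atp5g3 encode the same mature c-ring protein, and their fold changes were -0.0091 ± 0.082, -0.050 ± 0.088 and 0.0038 ± 0.065. The lowest of the complex was Atp5mpl, a small membrane subunit, at 11.25, 11.66 and 11.23 against 11.27, 11.23 and 11.18 (-0.15 ± 0.12). Control 2 stood above the other arrays, which spanned 11.18 to 11.27, and without it the difference was -0.016. Atp5e, the epsilon subunit of the rotor, was 11.28, 11.45 and 11.19 against 11.30, 11.04 and 11.14 (-0.15 ± 0.097), and without control 2 it was -0.074.

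The 8 complex I assembly factors Ndufaf1 to Ndufaf8, which build the complex but are not part of it, ran from -0.055 (Ndufaf3) to 0.086 (Ndufaf5), 4 higher and 4 lower. None of their intervals reached a change of 25%.

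Of the tissue forms and paralogues, 4 were higher and 4 lower. Cox6a2, the heart and muscle form of subunit 6a, had the lowest fold change of all members: 8.17, 8.57 and 8.05 in controls against 8.10, 8.20 and 7.88 in POMCDicerKO (-0.20 ± 0.14, limma adjusted p = 0.9999). Control 2 was again the highest array, and without it the difference of this probe set was -0.048. A dimmer Cox6a2 probe set, ending in _x_at, read 5.88, 6.25 and 5.72 against 5.61, 5.93 and 5.44. Its groups overlapped too (-0.29 ± 0.16), with control 2 the highest. Of the 9 striated muscle markers, 8 had a mean under 6, with a median fold change of -0.010 over the list. Cox7a1, also a muscle form, was dim at 5.62, 5.76 and 5.15 against 5.59, 5.67 and 5.01, with number 3 the lowest of both groups. Cox8b, a further muscle form, gave -0.13 ± 0.074, Cox7b2 -0.19 ± 0.15, Cox8c 0.13 ± 0.092, Cox4i2 0.11 ± 0.11, Cox6b2 0.037 ± 0.12 and Ndufa4l2 0.018 ± 0.11. The groups overlapped in each of them.

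The members varied together from array to array inside each group, and this was larger than their difference between groups. Within POMCDicerKO, sample 1 was the highest of the 3 arrays for 74 of 90 genes (beside 32.1% of all genes). Sample 3 was the lowest for 71 (beside 37.4%). Among all genes with a mean of at least 10 these shares were 36.9% and 45.0%. Sample 1 highest together with sample 3 lowest held for 62 genes (68.9%), beside 19.6% of all genes and 24.9% of genes with a mean of at least 10. Within controls, sample 3 was the lowest for 60 of 90 (beside 35.9%) and sample 1 the highest for 49 (beside 30.4%). Genes on 1 array share that array, so these counts describe 6 arrays and carry no test.

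Expressed as the deviation of each gene from its control mean, the median over the 90 genes was 0.049, 0.021 and -0.063 in controls 1 to 3 and 0.060, -0.016 and -0.067 in POMCDicerKO 1 to 3. Over all genes the same medians lay between -0.010 and 0.015. Sample 1 of each group was therefore high and sample 3 low by about the same amount, and the group means met near 0. The median gene was 0.12 higher in POMCDicerKO 1 than in POMCDicerKO 3 (0.022 over genes with a mean of at least 10) and 0.11 higher in control 1 than in control 3 (0.0029).

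**Figure D3:**
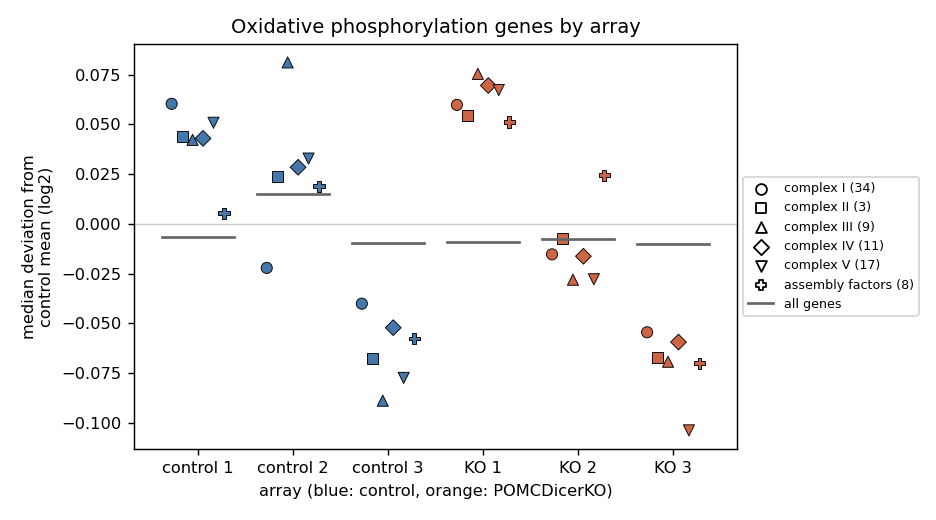
Median deviation from the control mean (log2) on each of the 6 arrays, for the genes of each complex and the assembly factors (number of genes in brackets), with a line for all genes; KO is POMCDicerKO. Complexes I to V lie above 0 in control 1 and KO 1 and below 0 in control 3 and KO 3, while all genes stay between -0.010 and 0.015.

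The complexes shared the order within POMCDicerKO, while in controls they shared only the low control 3. The median deviation in POMCDicerKO 1 was 0.060 for complex I, 0.055 for complex II, 0.075 for complex III, 0.070 for complex IV and 0.067 for complex V. In POMCDicerKO 3 it was -0.055, -0.067, -0.069, -0.059 and -0.10 in the same order. Assembly factors followed (0.051 and -0.070), and so did the tissue forms by a smaller amount above 0 (0.033 and -0.084). In control 3 the medians of complexes I to V were -0.040, -0.068, -0.089, -0.052 and -0.077. Which control was highest differed: complex III stood at 0.042 in control 1 and 0.081 in control 2, with control 1 highest for 3 of 9 genes and control 2 for 5. In complex IV control 1 was highest for 4 of 11 and control 2 for 5, whereas in complexes I and V control 1 was highest for 23 of 34 and 12 of 17. Assembly factors were at 0.0053, 0.019 and -0.058 in controls 1 to 3. POMCDicerKO 1 was the highest of its group for 30 of 34, 2 of 3, 8 of 9, 10 of 11 and 16 of 17 genes of complexes I to V, and for 5 of 8 assembly factors and 3 of 8 tissue forms. Cox7a2l ran the other way, at 11.25, 11.06 and 11.27 in controls and 11.17, 11.17 and 11.33 in POMCDicerKO, with sample 3 the highest in both groups.

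**Figure D4:**
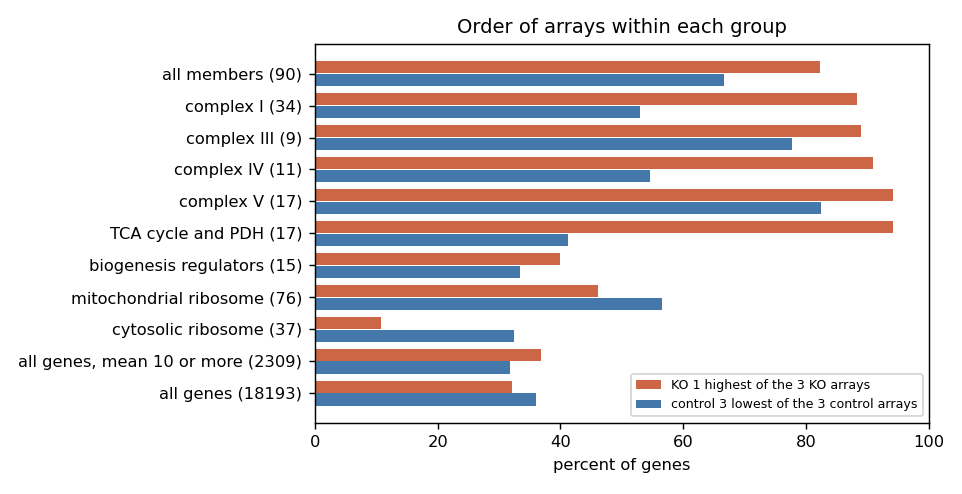
Percent of genes in each list (number of genes in brackets) for which POMCDicerKO (KO) 1 is the highest of the 3 KO arrays, in orange, and control 3 the lowest of the 3 control arrays, in blue; TCA cycle and PDH stand for the tricarboxylic acid cycle and pyruvate dehydrogenase. The bars of the 90 members reach 82.2% and 66.7%, and those of all genes 32.1% and 35.9%.

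Other lists were set beside this order as deviations from the control mean. Neuron markers, 12 genes, were at 0.10, 0.010 and -0.036 in POMCDicerKO 1 to 3, and POMCDicerKO 1 was the highest of its group for 11 of 12. In controls they were at 0.033, -0.037 and 0.021. Oligodendrocyte markers were at 0.81 in POMCDicerKO 1, and arcuate neuron markers, 10 genes, were lowest there at -0.43. The meningeal markers, lowest in control 3 and POMCDicerKO 3, gave -0.84 and -1.14. For RNA quality, the difference between the 3′ and 5′ control probe sets of Actb was 1.23, 1.31 and 1.17 in controls and 1.19, 1.16 and 1.12 in POMCDicerKO, so the groups overlapped. For Gapdh it was 0.064, 0.041 and 0.042 in controls and -0.011, -0.022 and -0.011 in POMCDicerKO, where the groups did not overlap. The part of tissue makeup and RNA quality in the values of the members was not tested.

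Control 2, the highest array for Cox6a2, Atp5mpl and Ndufa3, read the members differently by kind of probe set. It was above control 1 for 45 of 67 member probe sets with the plain ending _at and a mean of at least 6 (median difference 0.037), but for only 11 of 39 ending in _a_at (-0.12). The control probe set for small-subunit ribosomal RNA, 3′ part, was 11.18 on control 2 and 12.54 to 12.79 on the other arrays. Its part in the values of control 2 was not tested. Of 43 genes with several probe sets of mean at least 6, 13 had probe sets of both signs, with a median range of 0.051 within a gene. The widest was Atp5c1, the gamma subunit of the rotor, whose probe sets ran from 0.029 to 0.18.

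The pathways on either side were described by the same counts, and 0 of their genes passed (limma adjusted p). The tricarboxylic acid cycle and pyruvate dehydrogenase, which feed electrons to the chain, had 10 of 17 genes higher and 7 lower (median 0.0098). POMCDicerKO 1 was their highest array for 16 of 17, at 0.079. In glycolysis, 11 of 13 genes were higher and 2 lower (median 0.045), with POMCDicerKO 1 at 0.10. Carriers such as cytochrome c and the adenine nucleotide exchangers had 7 of 12 higher (median 0.013). Assembly factors outside the rule had 11 of 33 higher and 22 lower (median -0.027). The highest were Atpaf1, which assembles the ATP synthase head, at 0.22 ± 0.12 and Cox10, which makes heme for complex IV, at 0.17 ± 0.076. The lowest were Cox15 at -0.14 ± 0.090 and Coa6 at -0.12 ± 0.10.

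The regulators of mitochondrial biogenesis had 5 of 15 genes higher and 10 lower (median -0.040). The coactivator Ppargc1a was 8.93, 8.79 and 8.64 in controls and 9.02, 8.89 and 8.86 in POMCDicerKO (0.14 ± 0.091), with number 1 the highest and number 3 the lowest of each group. Ppargc1b gave 0.13 ± 0.10, Nrf1 -0.052 ± 0.072, Gabpa -0.048 ± 0.084 and Tfam, which packages and transcribes mitochondrial DNA, -0.087 ± 0.077. The groups overlapped for each. Genes of the mitochondrial ribosome were lower for 64 of 76 (median -0.034) and of the cytosolic ribosome for 32 of 37 (median -0.038), against 48 of 90 members and 55.1% of all genes. These differences between lists were not tested. The cytosolic ribosome also had another order, with POMCDicerKO 1 the highest of its group for 4 of 37 genes. A low POMCDicerKO 3 was not particular to the members. It was the lowest of its group for 13 of 17 tricarboxylic acid cycle and pyruvate dehydrogenase genes and 9 of 12 carriers. The same held for 23 of 33 outside assembly factors, 11 of 15 regulators and 46 of 76 mitochondrial ribosome genes. In glycolysis it held for 5 of 13 and in the cytosolic ribosome for 3 of 37.

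The direction of the small mean difference between groups changed with the arrays that were counted. Without POMCDicerKO 1, 66 of 90 genes were lower, and without control 3, 59. Without POMCDicerKO 3, 30 were lower, and without control 1, 40. With controls 1 and 2 left out together, since both were high in meningeal markers, 16 were lower and 74 higher (median 0.050). That sets control 3, the lowest control array for these genes, against a group that holds POMCDicerKO 1, the highest of its own. With POMCDicerKO 1 left out as well, 33 were lower and 57 higher (median 0.014). In both of these fits control 3 is the only control, so the spread comes from the POMCDicerKO arrays alone and control 3 is assumed to vary like them. With single arrays left out no member probe set passed (limma adjusted p, 0 in each).

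**Figure D5:**
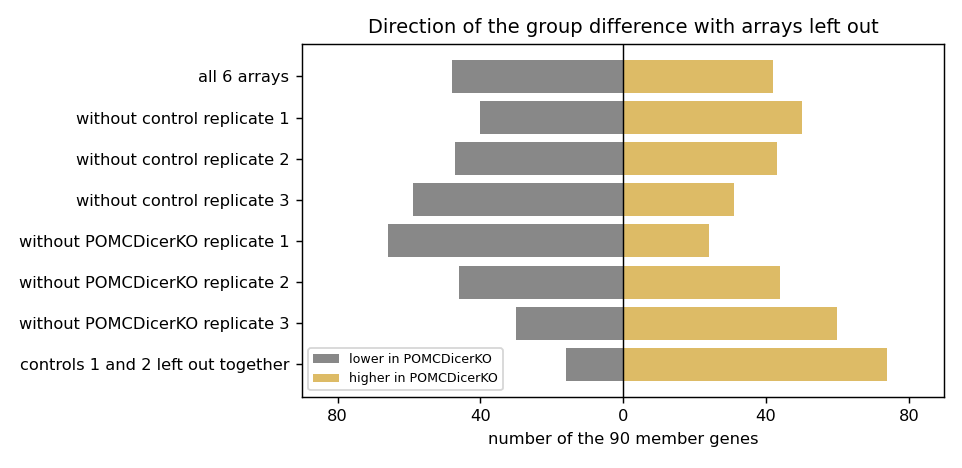
Number of the 90 member genes with a lower mean (grey, to the left) or a higher mean (yellow, to the right) in POMCDicerKO than in control, with all 6 arrays and with arrays left out. The split is 48 lower to 42 higher with all arrays, 66 to 24 without POMCDicerKO 1 and 16 to 74 without controls 1 and 2, where control 3 is the only control.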

How the data were processed

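The authors deposited log2 expression values for each probe set on each array, made with RMA and affy per the submitters' processing notes. The sources used here name no version of either. RMA equalises arrays by quantiles, which takes away a shift common to most transcripts. Nothing further was done to the deposited values before the fit. Array medians ran from 6.02 to 6.05, and precision is limited by the number of arrays. The 64 AFFX control probe sets were left out of the tests. The difference POMCDicerKO minus control was fitted with lmFit and eBayes of limma 3.58.1 under R 4.3.3. P-values were adjusted over 45037 probe sets after Benjamini-Hochberg, with a threshold of 0.05. Errors are limma standard errors. The model was tested on simulated data with independent noise for each probe set, which does not cover deviations that genes share on an array. For single values a two-sided exact permutation test was used. Members, gene lists, motifs and tests were chosen with earlier results of these data known. Genes named always are the tissue forms and their partners, Sdhb, Sdhc, Sdhd, Cyc1, Ndufs1, Ndufv1, Uqcrc1, Uqcrfs1, Cox5a and Atp5b. The rest were chosen by value: the 8 with the smallest unadjusted p in each direction and the smallest in each complex. To these were added the 5 with the widest spread over probe sets. Of the genes chosen by value the text gives the larger differences. Alternatives were other normalisations, filters, variance priors, array weights, a replicate block, other choices of probe set and arrays left out. Promoter sequences are from RefSeq, and no coordinates were converted. Protein sequences and a genome were not used here.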

Additional observations from a re-analysis of the deposited data

How the results depend on the processing

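No member probe set passed under any alternative that keeps at least 2 arrays in each group (limma adjusted p, 0 each). The count of lower genes stayed between 40 (array weights) and 52 (centring), over 83 to 90 genes. This covers centring, a further quantile normalisation, array weights, another choice of probe set and leaving out dim or _x_at and _s_at probe sets. Limma-trend and robust priors alter only the variances, so under them the fold changes and this count cannot move. The count of members with an unadjusted p under 0.05 fell from 2 to 1 with only probe sets of mean at least 6, with controls 1 and 2 left out, and with POMCDicerKO 1 left out as well. With each array left out it ranged from 1 (without control 2, and without POMCDicerKO 1) to 2, the median fold change from -0.046 to 0.024 and the count of lower genes from 30 to 66. Over all probe sets, 0 to 2 then passed (1 without control 1, 2 without control 3), and 1 with controls 1 and 2 left out, where 16 member genes were lower. With those left out the control group is 1 array and the spread is that of the POMCDicerKO arrays alone, so counts of calls there are no test of the control side. With the replicate number as a block (replicate block) 0 probe sets and 0 members passed. Each number holds 1 control and 1 POMCDicerKO array, so the block cannot move a fold change. The 48 lower genes under it are therefore no check. Same-numbered samples deviated together with r = 0.13, 0.079 and 0.12, other pairs with r from -0.11 to -0.018. Deviations from a group mean add to 0 within the group, so positive same-number values push the other pairs below 0. The negative values are therefore no separate sign of pairing. By the median deviation of the members, sample 1 was high and sample 3 low in both groups. Whether samples of a number share an origin was not tested, and the intervals come from the fit without the block. The labels do not say that numbers pair samples. Differences near background are compressed, and 26 of 176 probe sets had a mean under 6. Probe sets ending in _x_at or _s_at, 47 of 176, may match several transcripts.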
